A study of Mus musculus with 4 samples.

Results

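The spleens of tumor-bearing mice (TS) were compared with the spleens of control mice (CS) by droplet single-cell RNA-sequencing, across all genes and within classes of cells. Barcodes with at least 1000 detected genes and at most 10% of their UMIs (unique molecular identifiers, which count mRNA molecules) from mitochondrial genes were kept as cells. This left 3236 cells in CS and 5188 in TS, together 8424 of the 16261 cells that the same rule kept in the 4 libraries of the series. The other libraries were bone marrow of control mice (CBM) and of tumor-bearing mice (TBM). All mice were C57BL/6J, aged 8 to 16 weeks, and female according to the methods. In this model 500000 cells of PyMT-B6, a line derived from a mammary tumor of a C57BL/6J mouse that carried the polyoma middle T oncogene, are injected subcutaneously and spleens are taken after 21 days. Digested spleen was depleted of lineage-positive cells and sorted into hematopoietic fractions, CD45+ and c-Kit+ with or without Sca-1, and nonhematopoietic CD45- fractions split by CD31 and CD51. Although 5 populations were announced in the methods, 6 overlapping gates were described there, and which of them were pooled in equal proportion is not clear, so a share of cells here is a share of a sorted mixture and not of the spleen.

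The spleen of an adult mouse carries out little blood formation until a stress such as infection, bleeding, or a tumor calls for it, which is known as extramedullary hematopoiesis (EMH). Stem and multipotent progenitors then lodge in the red pulp and give rise to erythroid, megakaryocytic, and granulocytic cells, while the resident dendritic cells of the spleen present antigens on MHC class II. Emergency granulopoiesis, the faster output of neutrophils, and stress erythropoiesis, the faster output of red cells, are the best-known forms of EMH.

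There was 1 library for each group, and the number of mice in each was not given in the sources used here. No test across animals is possible, and the 95% intervals given with ratios, levels, and shares cover counting error only. Differences of age, handling, or preparation between the libraries cannot be told apart from the tumor. The kept cells held 104314280 UMIs in CS and 139854825 in TS, with a median per cell of 26322 and 26808 UMIs. CS and TS shared 5 barcodes, where 2.47 were expected by chance. Summed markers of epithelial or tumor cells were at 18.3 CPM (UMIs scaled to a common library total) in CS and 12.2 in TS, with 2 of the 6 genes at 0 in CS and 1 in TS. Those of stromal cells were at 7.79 and 12.9 CPM, with 3 of 10 at 0 in each library, although CD45- gates were part of the sort.

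In percentage points, the named classes that differed most between the spleen libraries were early erythroid-like, conventional dendritic cell-like, and basophil-like cells. Cells were clustered on 159 marker genes alone, and a class was named from its markers, so that genes outside the panel had no part in the classes. Of 23 clusters, 12 could be named, and they held 45.9% of cells in CS and 46.0% in TS. The other 11 showed markers of several classes or too few markers of any, and are called by their leading genes. No panel cluster was at least 95% from one library, whereas 8 of 31 clusters built on variable genes were, with 33.0% of cells.

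Conventional dendritic cell-like cells, the antigen-presenting cells marked by Cd74, H2-Aa, Xcr1, and Clec9a, numbered 382 in CS and 44 in TS. Their share was 11.8% (95% interval 10.7 to 12.97) in CS and 0.848% (0.617 to 1.14) in TS, 13.9-fold lower (10.2 to 19.5). Among the 44 TS cells, 37 had at least 10 UMIs of Cd74, and 2 also had at least 10 UMIs of the neutrophil gene S100a9, which none of the 382 CS cells had. Basophil-like cells, named for small granulocytes of the blood, numbered 290 in CS and 63 in TS. Their share was 7.38-fold lower in TS (5.603 to 9.85), at 8.96% in CS and 1.21% in TS. The ratio of shares, 0.136, was 0.332 with cells of at least 350 genes and 0.209 by marker score. At least 10 UMIs of the protease gene Prss34, a marker of the class, were found in 3 of the CS cells and 20 of the TS cells. With no mitochondrial limit the clustering set apart cells led by Ccl6, Ccl3, and Lilr4b, 291 in CS and 46 in TS, from cells led by Prss34, Mcpt8, and Prg2, 23 in CS (0.608%) and 46 in TS (0.817%), so the lower share does not hold for the second kind. These were shallow cells, with a median of 4890 UMIs in CS and 3362 in TS. Summed over whole libraries, the basophil markers were at 224.8 CPM in CS and 156.2 in TS (log2 ratio -0.53). The conventional dendritic cell markers were at 2921 and 154.7 CPM (-4.24).

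Early erythroid-like cells, committed red cell progenitors that do not yet fill with hemoglobin, made up 9.70% of CS (8.71 to 10.8) and 22.2% of TS (21.1 to 23.4), a ratio of 2.29 (2.02 to 2.60). Summed over whole libraries, the early erythroid markers differed less, at 3469 CPM in CS and 3978 in TS (log2 ratio 0.20). An unnamed class led by Atp7b, Sphk1, and Asb17os also showed 8 or 9 of the 10 early erythroid markers, and its share was 4.70% in CS and 12.3% in TS, a ratio of 2.61 (2.19 to 3.14). The 6 clusters, named or not, whose best match was early erythroid with at least 60% of its markers raised held 466 cells or 14.4% of CS and 1789 cells or 34.5% of TS. The hemoglobin-rich cluster is not among these. Hemoglobin-rich erythroid-like cells, the later stage, numbered 66 in CS and 62 in TS, a ratio of shares of 0.586 (0.408 to 0.842) that turned to 1.04 with cells of at least 350 genes.

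Stem and multipotent progenitor-like (HSPC-like) cells, marked by Hlf, Mecom, and Adgrl4, were 5.99% of CS and 13.2% of TS, a ratio of 2.20 (1.87 to 2.59). This ratio ran from 1.202, when each cell took the class of its highest marker score, to 3.997, when cells with at least 350 genes were clustered. Summed over whole libraries, the stem and multipotent progenitor markers were not higher in TS, at 379.6 CPM in CS and 341.5 in TS (log2 ratio -0.15). Neutrophil-like cells were few, 28 in CS and 125 in TS, and their share was 2.79-fold higher in TS (1.84 to 4.36), or 1.66-fold with cells of at least 350 genes. Megakaryocyte-like cells, the platelet precursors, had shares of 5.53% and 4.55%, and the interval of their ratio of 0.822 reached from 0.674 to 1.00. With cells of at least 350 genes it turned to 1.37. The largest unnamed class, led by Apoe, Scin, and Ptpn14, held 27.6% of CS and 24.2% of TS. An unnamed class led by Gzmb, Mcpt1, and Colec11 made up 14.8% of CS and 7.36% of TS. It joined a cluster that scored highest for basophils and mast cells with another that scored highest for stem and multipotent progenitors. Another unnamed class, led by F13a1, Ly6c2, and Mpo, made up 4.76% and 7.17%, a ratio of 1.51 (1.25 to 1.83).

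**Figure D1:**
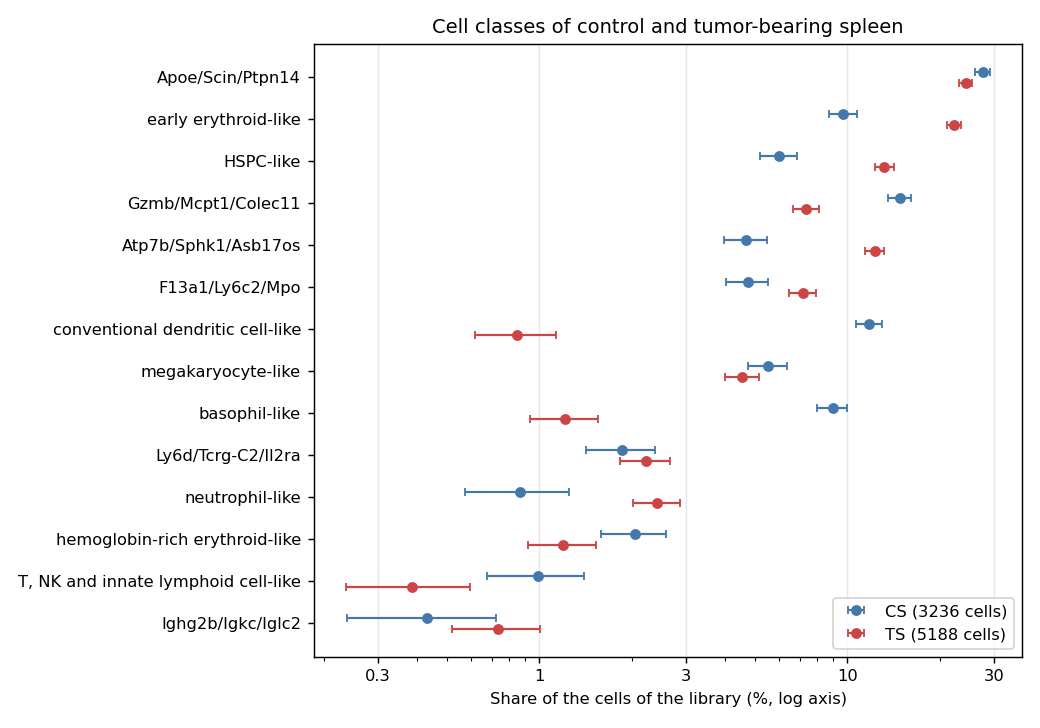
Share of the cells of each library (%, log axis) in each class, with CS in blue and TS in red and bars for the exact binomial 95% interval; classes without "-like" are unnamed and given by leading genes. Conventional dendritic cell-like cells (11.8% against 0.848%) and basophil-like cells (8.96% against 1.21%) are farthest apart, and the intervals of megakaryocyte-like cells overlap.

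Across whole libraries, 7791 genes had a mean of at least 10 CPM over CS and TS. Of these, 19 were at least 2-fold higher in TS (0.244%) and 189 at least 2-fold lower (2.43%), and the whole interval lay past 2-fold for 14 and 172 of them. A gene under 10 CPM in one library passed through the other alone, which fixed the direction of its ratio, as it did for 9 of the 19 higher and 104 of the 189 lower genes. Of the 7451 genes at 10 CPM or more in both libraries, 10 were higher (0.134%) and 85 lower (1.14%). The median log2 ratio of all genes tested was -0.02. In summed UMIs, fewer cells of a type and less RNA per cell cannot be told apart. TS was therefore also recomputed with each class at the share of UMIs that it has in CS. Then 10 of the 19 genes and 26 of the 189 were still past 2-fold. Of the 10, Lcn2, S100a8, and S100a9 are left out as described with the granule genes, which leaves 7. Marker panel genes helped to define the classes, so their recomputed ratios are not independent of the classes. The recomputation also moves the 44 dendritic cell-like TS cells from 0.419% of UMIs to 8.58%. The 63 basophil-like TS cells go from 0.213% to 1.46%. Values that draw on these classes therefore rest on few cells. In marrow, 12 of the 19 were also past 2-fold higher with the tumor, against 0.424% of all genes tested, and 35 of the 189 past 2-fold lower, against 0.732%.

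MHC class II genes were the most reduced group in TS. Cd74, the invariant chain of MHC class II, was at 1112 CPM in CS against 44.8 in TS (log2 ratio -4.64, interval -4.67 to -4.60). H2-Aa, H2-Eb1, and H2-Ab1, the chains of the class II molecule itself, had log2 ratios of -4.55, -4.48, and -3.73. Of the 8 genes of the class II list 7 passed the filter and 6 were past 2-fold lower, with a median log2 ratio of -4.42 (against 2.43% of all genes lower). Ciita, the coactivator of these genes, was among them and passed through CS alone. With the class shares of CS the median was -0.27, a value that gives heavy weight to the 44 dendritic cell-like TS cells. Cd74, H2-Aa, H2-Eb1, and H2-Ab1 are also markers of the dendritic cell-like class, so their ratios and its share are not separate results. H2-DMa and H2-DMb1, outside the panel, were past 2-fold lower in the unnamed F13a1/Ly6c2/Mpo class (-1.03 and -1.34, against 2.06% of all genes there). H2-DMb1 passed there through CS alone. In the other classes compared below only H2-DMa passed, with H2-DMb1 beside it in HSPC-like cells, and neither was past 2-fold lower. The panel genes were left out there, so these classes say little about the class II list.

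Irf8, a transcription factor that dendritic cells and monocytes need, fell from 201.5 to 19.2 CPM (log2 ratio -3.39), and Cst3, the protease inhibitor cystatin C, from 1321 to 234.5 CPM (-2.49). Psap, a precursor of lysosomal lipid-binding proteins, Gm2a, a lysosomal lipid-binding cofactor, and the leukocyte surface protein Cd52 had log2 ratios of -2.57, -1.85, and -2.81. Tmsb4x, the actin-binding thymosin beta 4, was among the most abundant of these genes at 4773 CPM in CS against 1208 in TS (-1.98). With the class shares of CS, the ratios of Tmsb4x, Psap, and Gm2a were -0.26, -0.40, and -0.23. Those of Irf8 and Cd52 were -0.83 and -0.49, and that of Cst3 was on the other side of zero at 0.05. These values give heavy weight to the 44 dendritic cell-like TS cells. Btg1, Rgs2, and the platelet chemokine gene Pf4 completed the 15 lowest genes, at -1.42, -1.39, and -1.38. With the class shares of CS they were at -0.32, -0.58, and -0.48, and Pf4 is a panel gene.

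Apoe and H2-Q7 stayed past 2-fold lower with the class shares of CS. Apoe, the lipid carrier apolipoprotein E, was at 637.3 CPM in CS against 182.8 in TS (log2 ratio -1.80), and at -1.23 with the class shares of CS. Its level in barcodes with at most 100 UMIs, which hold mainly free RNA, was 717.7 CPM in CS and 236.5 in TS. H2-Q7, a nonclassical MHC class I gene, was at 298.7 and 91.5 CPM (-1.71), and at -1.31 with the class shares of CS. Its reads may be shared with H2-Q6, a near-identical neighbor, so both symbols are best read together. In marrow the same genes were also lower with the tumor, with log2 ratios of TBM over CBM of -1.75 for Apoe and -1.29 for H2-Q7.

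Genes of granulocyte-monocyte progenitors were among the higher ones. Ms4a3, a surface protein of granulocyte-monocyte progenitors, rose from 56.5 to 175.6 CPM (log2 ratio 1.63, interval 1.59 to 1.68). Prtn3 and Ctsg, serine proteases of the primary (azurophil) granule, were at 442.2 and 210.0 CPM in CS against 911.4 and 417.8 in TS (1.04 and 0.99). Over the azurophil list, 9 genes passed, 8 were above 0, and the median was 0.80, with Prss57 and Prtn3 past 2-fold (against 0.244% of all genes higher). Of the 11 genes of the specific granule list, which encode antimicrobial proteins of maturing neutrophils, 3 passed. S100a8 was at 15.5 CPM in CS against 106.9 in TS (2.79). S100a9, at 6.845 and 88.02 CPM, and Lcn2, at 1.198 and 23.04 CPM, passed through TS alone, so their direction was fixed by the filter. With the class shares of CS, Ms4a3 stood at 0.96, Prtn3 at 0.25, and Ctsg at 0.36, and all of these are panel genes. The recomputed values of the S100 genes weight the 2 dendritic cell-like TS cells with S100a9 heavily and are not used. That of Lcn2 is left out with them, although the cells behind it were not checked in this way.

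Among genes with a mean of at least 100 CPM, from which the 15 highest and lowest were taken, the other high genes did not reach 2-fold. Acaa2, a thiolase of mitochondrial fatty acid oxidation, was at 0.80, Pla2g12a, a secreted phospholipase, at 0.78, and C1qtnf12, a secreted protein of the C1q and TNF family, at 0.77. Mt2 and Mt1, the metallothioneins that bind zinc and copper, were at 0.74 and 0.61, Ddx39, an RNA helicase, at 0.69, and Dstn, an actin-depolymerizing protein, at 0.66. Rbm3, an RNA-binding protein induced by mild cold, was at 627.4 CPM in CS against 1001 in TS (0.67, interval 0.66 to 0.69), and Wdr89 was at 0.64. Slc25a4, the mitochondrial ADP/ATP carrier, and the noncoding RNA genes Snhg4 and 1110038B12Rik were at 0.61, 0.61, and 0.58. Rbm3 and Wdr89 kept 0.63 each with the class shares of CS.

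**Figure D2:**
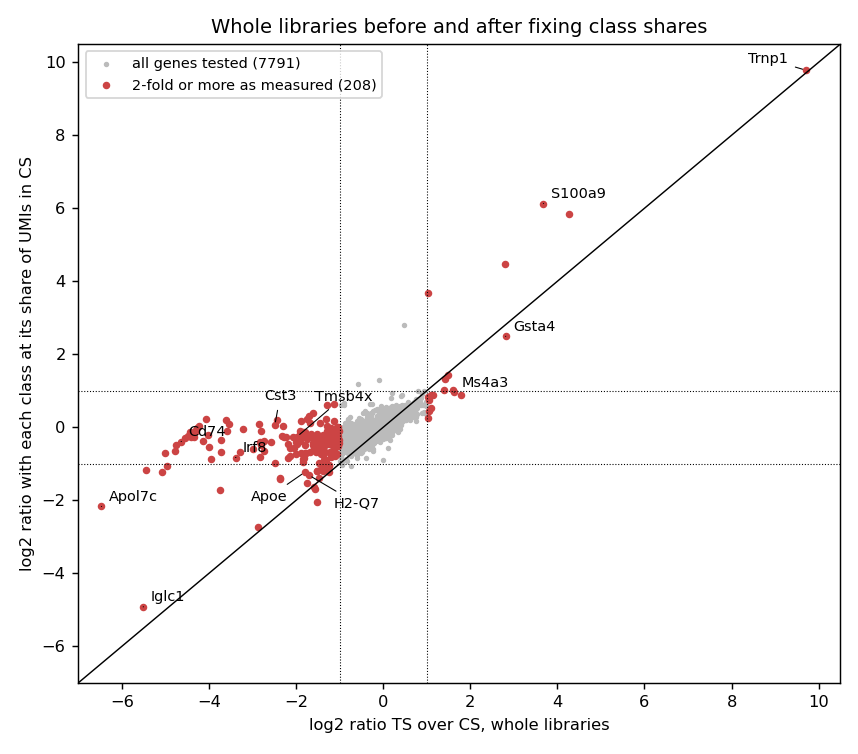
Each point is a gene, with the log2 ratio of TS over CS in whole libraries on the x axis and the same ratio with every class held at its CS share of UMIs on the y axis; the line marks equal values and dotted lines 2-fold. Cd74, a panel gene, moves from -4.64 to -0.39, whereas Apoe (-1.80 and -1.23) and Trnp1 (9.71 and 9.78) lie near the line.

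Globins fell together, with all 4 that passed past 2-fold lower (against 2.43% of all genes tested) and a median log2 ratio of -1.84. Hbb-bs, an adult beta globin, was at 1688 CPM in CS against 483.3 in TS, and Hba-a1 and Hba-a2, near-identical alpha globins whose reads can be split between them, had log2 ratios of -1.88 and -2.19. With the class shares of CS the median was -0.60, and the globins that passed are all panel genes. Effector genes of mast cells and basophils had a median of -1.27 over 9 genes, with Ccl3, Ccl6, Ccl4, Gzmb, and Ccl9 past 2-fold lower (against 2.43%) and Prss34 past 2-fold higher (against 0.244%). With the class shares of CS this median was -0.10, and Gzmb and Prss34 are panel genes. Ccl3, an inflammatory chemokine, fell from 120.2 to 15.3 CPM, and Prss34 rose from 17.1 to 35.0 CPM. Of the immediate-early list, genes induced within minutes of a stimulus or of tissue digestion, 18 passed, 17 were below 0, and Klf6, Klf2, Klf4, and Atf3 were past 2-fold lower, against 2.43% (median -0.59, and -0.12 with the class shares of CS). Klf2, Klf4, and Atf3 were under 10 CPM in TS and passed through CS alone.

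Trnp1 was nearly absent from CS and abundant in TS, and it passed the filter through TS alone, which fixed the direction of its ratio. It encodes a nuclear protein best known from neural progenitors, at chr4:133491100-133498550 on the minus strand of mm10. The gene did not reach the level required of named genes and was picked out after its values were seen. CS had 9 UMIs of Trnp1 in 8 cells (0.0863 CPM), and TS had 10127 UMIs in 2524 of its 5188 cells, 48.6% (72.4 CPM, log2 ratio 9.71, interval 8.79 to 10.8).

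Within classes, Trnp1 UMIs were found in 0 of 314 early erythroid-like cells of CS, which allows a share of cells with a UMI of up to 1.17% and sets no limit on cells that express the gene, and in 807 of 1152 of TS, or 70.0%. In the Apoe/Scin/Ptpn14 class its level was 0.0287 CPM in CS against 139.4 in TS, with UMIs in 1011 of 1258 TS cells, and in the Gzmb/Mcpt1/Colec11 class 0.124 and 57.6 CPM. HSPC-like cells of TS, at 2.95 CPM with UMIs in 3.07% of cells, were far below these classes, and none of the 63 basophil-like TS cells had one. Free RNA of TS held 60.2 CPM, so the HSPC-like share is not read as expression. In marrow it was at 0.0507 CPM in CBM and 3.59 CPM in TBM. Among TS early erythroid-like cells 29.9% had no Trnp1 UMI, where 7.99% would be expected if all held it at one level. Other genes also had more cells without a UMI than expected there, Apoe at 25.2% against 4.12%, H2-Q7 at 22.9% against 10.7%, and Gsta4 at 9.20% against 3.22%, whereas the neighboring and more abundant Nudc, a mitotic chaperone, was at 0.608% against 0.566%. Fbxo9, a gene beside Gsta4 with 3348 UMIs in these cells against 3382 of Trnp1, was at 10.4% against 8.16%. Genes within 200000 bases of Trnp1 did not share its ratio, with Nudc at 0.22, Gpn2 at 0.09, Zdhhc18 at -0.07, Arid1a at -0.32, and Wdtc1 at -0.38.

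Gsta4 and Rec8 were picked out in the same way. Gsta4, a glutathione transferase that clears products of lipid peroxidation, rose from 10.3 to 72.2 CPM (2.81), and within early erythroid-like cells from 23.0 to 113.7 CPM. Rec8, a cohesin subunit of meiosis, was at 8.91 CPM in CS against 24.9 in TS (1.48), and within early erythroid-like cells at 11.9 against 30.2 CPM; it passed the filters of 10 and 20 CPM through TS. In HSPC-like cells, where both were under the filter, Gsta4 was at 8.65 CPM in CS and 6.58 in TS and Rec8 at 7.45 and 7.17. In marrow both were slightly lower with the tumor, Gsta4 at 3.11 CPM in CBM and 2.49 in TBM and Rec8 at 5.85 and 3.65. Fbxo9, Elovl5, and Ick, genes beside Gsta4, had spleen ratios of 0.13, 0.07, and 0.02.

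**Figure D3:**
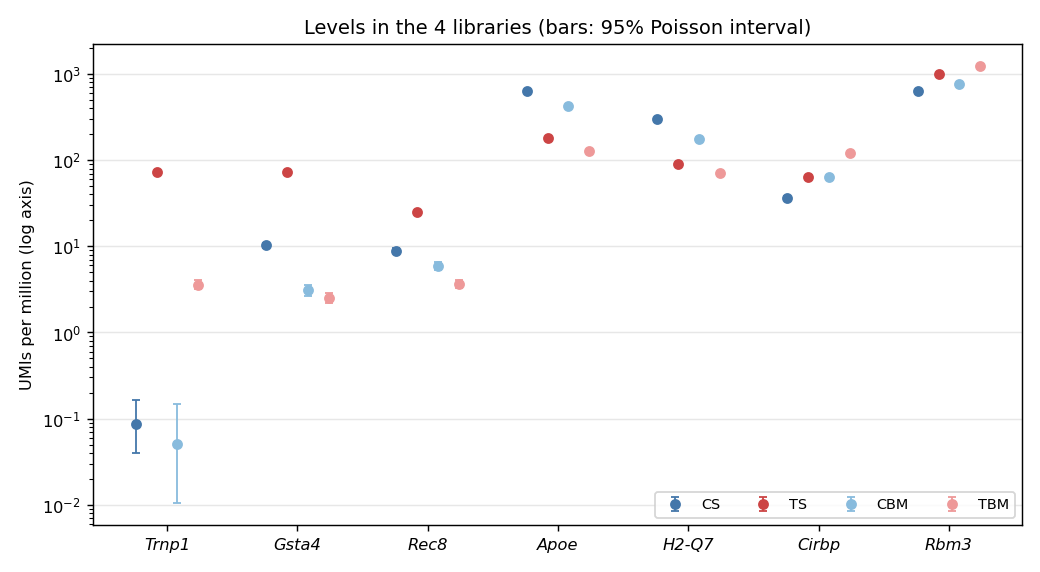
Levels of 7 genes in CPM (log axis) in CS, TS, CBM, and TBM, with bars for the exact Poisson 95% interval, most of which are smaller than the points. Trnp1 is at 0.0863 CPM in CS and 72.4 in TS, Gsta4 and Rec8 are high in TS alone, and Apoe and H2-Q7 are lower with the tumor in both tissues.

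To separate change within cells from change in composition, CS and TS were compared within the 7 classes that had at least 100 cells in each library. Marker panel genes were left out of these comparisons. The filter was a mean of 20 CPM over both libraries, and a gene under it in one library passed through the other alone, with its direction fixed. This held for 0 to 58 of the lower genes and 2 to 14 of the higher genes of a class. Of 4521 genes tested in all 7 classes, 4441 were past 2-fold in none, and none was past 2-fold in the same direction in all 7. Cells of TS were shallower in every one of these classes, for example 37876 against 68916 UMIs at the median in early erythroid-like cells, and the part of this in the ratios was not tested.

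In early erythroid-like cells, 5 of 5334 genes were past 2-fold higher (0.0937%) and 8 lower (0.150%), of which 3 and 2 passed through one library alone. The highest named genes were Wdr89 (log2 ratio 0.59), Rbm3 (0.58), Slc25a4 (0.56), Acaa2 (0.54), and Ifngr1, a chain of the interferon gamma receptor (0.54). Ifngr1 was at 130.6 CPM in CS against 190.1 in TS. The lowest were H2-Q7, from 246.0 to 65.4 CPM (-1.91, interval -1.98 to -1.84), Apoe, from 299.8 to 102.2 CPM (-1.55), Gm10076 (-1.06), Nr4a2, an immediate-early nuclear receptor (-1.06), and Psmb9, an immunoproteasome subunit (-0.81). Egr1, an immediate-early transcription factor, was at 19.4 CPM in CS against 48.5 in TS and passed the filter through TS. Gm10076 and Hist1h2ap have near-identical copies elsewhere in the genome, so their counts are uncertain.

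The Atp7b/Sphk1/Asb17os class gave nearly the same genes, with 6 of 5420 higher (0.111%) and 8 lower (0.148%). H2-Q7 was at -1.99, Apoe at -1.61, Nr4a2 at -1.13, Gm10076 at -1.09, and Tmsb4x at -1.03. Wdr89 (0.61), Rbm3 (0.60), Acaa2 (0.59), Slc25a4 (0.58), and Asns, the asparagine synthetase that rises when amino acids are short (0.57), were highest. Asns was at 105.1 CPM in CS against 156.0 in TS.

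In the Apoe/Scin/Ptpn14 class, 10 of 5529 genes were higher (0.181%) and 10 lower (0.181%), and 9 of the higher ones passed through TS alone. Apoe itself fell from 1000 to 360.2 CPM (-1.47) and H2-Q7 from 345.8 to 121.8 CPM (-1.51). Ifitm1, an interferon-induced membrane protein, was at -0.99, Gm10076 at -0.96, and Ass1, which makes argininosuccinate in arginine synthesis, at -0.95. C1qtnf12 (0.85), Nrgn, a calmodulin-binding protein (0.74), Cd24a, a surface glycoprotein of developing blood cells (0.71), Acaa2 (0.69), and Rbm3 (0.69) were highest. When cells were clustered on all variable genes, this class was split by library. Of its 892 CS cells, 269 (30.2%) fell in a Ccdc180/BC051142/Scin cluster and 132 (14.8%) in a Ung/Grb10/Ass1 cluster, which took 2 and 0 of its 1258 TS cells, whereas a Trnp1/Ccl17/Smagp cluster took 32 CS cells (3.59%) and 439 TS cells (34.9%). A Trnp1/Gsta4/Clstn1 cluster held 34.6% of its CS cells and 43.7% of its TS cells.

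In HSPC-like cells, 13 of 6198 genes were higher (0.210%) and 49 lower (0.791%), and 22 and 38 with a trimmed mean scaling or 21 and 34 with clusters on all variable genes. Of these, 4 of the 13 and 23 of the 49 passed through one library alone. Cirbp, the other RNA-binding protein induced by cold, rose from 58.7 to 143.2 CPM (1.29, interval 1.09 to 1.49). Serpina3g, a serine and cysteine protease inhibitor of hematopoietic cells (1.14), Neurl3, a ubiquitin ligase (1.08), Rbm3 (0.94), and Btg2, an antiproliferative factor (0.92), followed. Apoe fell from 852.0 to 234.1 CPM (-1.86), and Fosb, an AP-1 subunit, from 773.9 to 240.9 CPM (-1.68). Ccl4, a chemokine, fell from 281.8 to 94.2 CPM (-1.58), Lgals1, a sugar-binding lectin, from 372.6 to 148.5 CPM (-1.33), and H2-Q7 from 345.2 to 146.4 CPM (-1.24).

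Within lists, some members were higher and others lower in HSPC-like cells. Socs3, a feedback inhibitor of cytokine signaling, rose from 33.2 to 97.5 CPM (1.56), and Icam1, an adhesion molecule, from 42.1 to 100.2 CPM (1.25), while Ccl3 fell from 128.9 to 24.8 CPM (-2.38). Other members were under 20 CPM in one library. Il1r1, the receptor of interleukin-1, was at 19.7 CPM in CS against 42.0 in TS (1.09) and passed through TS. Klf4, a transcription factor of the monocyte lineage, at 52.4 against 8.54 CPM (-2.62), and Csf1, the macrophage growth factor, at 31.2 against 12.0 CPM (-1.38), passed through CS. Further genes that the study names were above 0 in this class but not past 2-fold, Cxcl2 at 179.3 CPM in CS and 332.7 in TS (0.89), Nfkbiz at 0.56, Nfkbia, an inhibitor of NF-kB, at 0.47, and Tnf, the cytokine tumor necrosis factor, at 42.8 and 51.8 CPM (0.27, interval 0.03 to 0.53). The study made another comparison, of TS progenitors, defined otherwise, with those of marrow. There it reported these genes as raised and Il1r1 as somewhat lower in TS than in CBM. It also described a similar signature in some progenitors of control spleen. In the other compared classes Tnf did not pass the filter, and Nfkbia ran from 0.07 in the F13a1/Ly6c2/Mpo class to 0.98 in megakaryocyte-like cells. All 7 cholesterol genes that passed were below 0 (median -0.63), with Insig1, a sensor of sterols, at -1.06 and passing through CS alone. Of 18 G2 and mitosis genes 16 were above 0 (median 0.18), and of 19 S-phase genes 15 were (0.26), none past 2-fold. The median of all genes tested in this class was 0.00.

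In the Gzmb/Mcpt1/Colec11 class, 10 of 6028 genes were higher (0.166%) and 27 lower (0.448%), of which 5 and 11 passed through one library alone. Cirbp rose from 64.9 to 156.8 CPM (1.27), Skil, a repressor of TGF-beta signaling, from 70.3 to 155.0 CPM (1.14), and Cd69, an early activation antigen, from 260.7 to 523.3 CPM (1.01). Nrgn (0.95) and Smad7, an inhibitor of TGF-beta signaling (0.82), were next. Lgals1 fell from 307.1 to 66.1 CPM (-2.22, interval -2.40 to -2.03), Fosb from 603.4 to 241.0 CPM (-1.32), and H2-Q7 and H2-Q6 each by 1.01 on the log2 scale. Apoe was at 1578 and 793.9 CPM (-0.99). Csf2rb, the shared receptor chain of interleukin-3 and granulocyte-macrophage colony-stimulating factor, was at 39.9 CPM in CS against 14.9 in TS (-1.42) and passed through CS alone. Cyp51, a sterol demethylase, was at -1.07.

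In megakaryocyte-like cells more genes were higher, 40 of 6085 (0.657%), than lower, 16 (0.263%), and 14 and 9 of them passed through one library alone. Skil rose from 40.6 to 186.5 CPM (2.20, interval 1.96 to 2.44) and Cd69 from 141.6 to 357.7 CPM (1.34). Ier3, an immediate-early survival gene (1.19), Tubb2a, a beta tubulin (1.11), and Serpinb1a, an inhibitor of neutrophil proteases (1.06), followed. All 7 NF-kB genes that passed were above 0 (median 0.73, against -0.03 for all genes tested), whereas 10 of 15 were below 0 in whole libraries (median -0.38, or 0.25 with the class shares of CS) and 6 of 9 in the F13a1/Ly6c2/Mpo class (-0.12). In the other classes most members that passed were above 0, 11 of 15 in HSPC-like cells (0.27), 7 of 10 in the Gzmb/Mcpt1/Colec11 class (0.18), 3 of 3 in early erythroid-like cells (0.22) and in the Atp7b class (0.26), and 4 of 7 in the Apoe/Scin/Ptpn14 class (0.01). In megakaryocyte-like cells Cxcl2, a neutrophil chemokine, rose from 39.5 to 135.3 CPM (1.78) and Nfkbiz, a nuclear regulator of NF-kB, from 20.4 to 58.6 CPM (1.52). Gm10076 (-1.11), Apoe (-1.02), H2-Q7 (-0.94), Timp3, an inhibitor of matrix proteases (-0.78), and Kif11, a spindle motor (-0.75), were lowest. TS cells of this class had a median of 11588 UMIs and CS cells 24114, and 12 of the 40 higher genes and 1 of the 16 lower ones had their whole interval past 2-fold.

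The F13a1/Ly6c2/Mpo class had the most genes past 2-fold, with 47 of 5742 genes higher (0.819%) and 118 lower (2.06%), of which 12 and 58 passed through one library alone. Ifitm1 rose from 183.3 to 900.6 CPM (2.30, interval 2.21 to 2.39), Gclm, a subunit of the enzyme that makes glutathione, from 81.2 to 221.9 CPM (1.45), and Lyar, a nucleolar protein, from 178.0 to 413.2 CPM (1.21). Ddx39 (1.18) and Mt1 (1.14) followed. The 5 lowest named genes were Lyz2, lysozyme, from 494.1 to 81.4 CPM (-2.60), Irf8 from 458.1 to 105.1 CPM (-2.12), Ly86, which pairs with a Toll-like receptor homolog, from 173.1 to 37.8 CPM (-2.20), Fcer1g, a signaling chain of Fc receptors, from 368.1 to 91.7 CPM (-2.00), and Slpi, a protease inhibitor, from 178.9 to 34.5 CPM (-2.37).

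Il6ra, the receptor chain that binds interleukin-6, fell from 56.6 to 21.3 CPM in this class, and Il6st, its signaling partner, was at 44.4 CPM in CS against 12.0 in TS and passed through CS alone. Klf4 fell from 92.4 to 24.8 CPM. Ldha, lactate dehydrogenase A, rose from 461.0 to 931.0 CPM (1.01). Lcn2 was at 16.1 CPM in CS against 112.0 in TS (2.80) and Mt2 at 11.9 against 39.4 CPM (1.73), both under the filter of 20 CPM in CS and passing it through TS. The class carried markers of monocytes and of granulocyte-monocyte progenitors, and a change in its mixture cannot be told apart from change within its cells. When cells over the mitochondrial limit were added, the clustering separated granulocyte-monocyte progenitor-like cells, at 2.38% of CS and 6.05% of TS, from monocyte-like cells, at 3.60% of CS and 1.08% of TS.

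A set of genes had ratios on the same side of 0 in nearly all clusters. They were picked for their ratios within classes of these same cells. The clusters are parts of the same libraries and not replicates, so any difference between the libraries as a whole enters all of them. How many of all genes lay on one side of 0 in every cluster was not computed. In 20 single clusters with at least 25 cells in each library, Rbm3 (median log2 ratio 0.66), Cirbp (0.89), Wdr89 (0.63), Slc25a4 (0.52), Ddx39 (0.38), and Mt1 (0.43) were above 0 in 20 of 20. H2-Q7 (-1.55), H2-Q6 (-1.32), Hist1h2ap (-1.69), Gm10076 (-1.01), and Fosb (-0.72) were below 0 in 20 of 20. Apoe was below 0 in 19 of 20 and Lgals1 in 17 of 20. Skil was above 0 in 17 of the 19 clusters where it passed. In whole marrow libraries Rbm3 was also higher with the tumor, from 766.9 to 1237 CPM, and Cirbp had a log2 ratio of 0.93, whereas Wdr89 was at -0.32 and Gm10076 at 0.36. In free RNA Rbm3 was at 632.5 CPM in CS and 988.9 in TS. With 10% of each library subtracted as free RNA, 21 genes were past 2-fold higher and 202 lower in whole libraries. Ratios of named genes were recomputed in this way too and are not given here. How much of each ratio comes from free RNA was not measured.

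**Figure D4:**
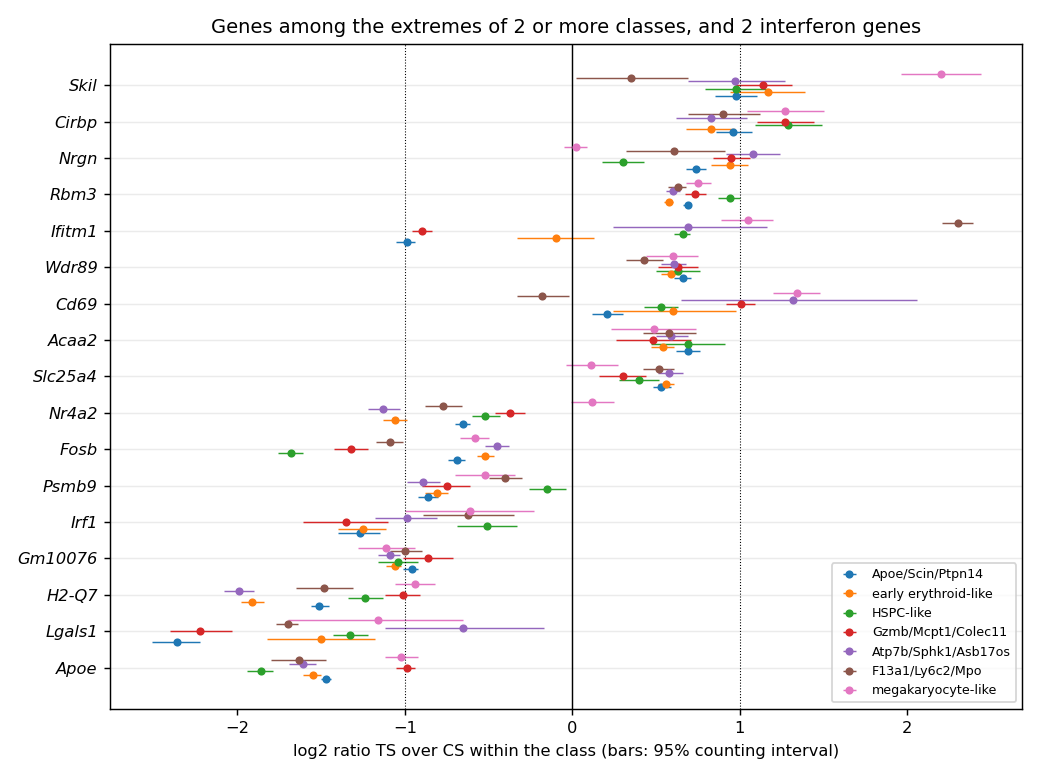
Log2 ratio of TS over CS (x axis) of genes among the 5 highest or lowest in 2 or more classes and of Irf1 and Psmb9, with a color for each of the 7 classes and bars for the 95% counting interval. Apoe, H2-Q7, Irf1, Lgals1, and Fosb lie below 0 in all 7 classes, Rbm3, Cirbp, and Wdr89 above 0 in all 7, and Ifitm1 runs from -0.99 to 2.30.

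Most genes of the MHC class I list lay below 0 in all 7 classes, whereas the class medians of interferon-stimulated genes ranged from -0.63 to -0.06. Interferons induce Irf1 through the gamma-activated site TTCNNNGAA, and NLRC5 drives the class I heavy chains, B2m, and the peptide-loading genes. Irf1 fell from 59.1 to 24.8 CPM (-1.25) and was below 0 in 19 of 19 clusters. Nlrc5, at 15.5 CPM in CS against 5.56 in TS (-1.48), passed the whole-library filter through CS alone and was below 0 in 18 of 18. Here and below, the clusters are again parts of the same libraries and not replicates, and the counts have no share over all genes beside them. In marrow Irf1 and Nlrc5 were also lower with the tumor, at -0.81 and -0.59.

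All 10 genes of the MHC class I list were below 0 in whole libraries, with a median of -0.73 (-0.43 with the class shares of CS), and Nlrc5 and Psmb9 were past 2-fold lower, against 2.43% of all genes tested. Without Nlrc5, the other 9 genes were at 10 CPM or more in both libraries and had a median of -0.71. B2m, the common light chain of class I, was below 0 in 20 of 20 clusters (median -0.67), as were the heavy chains H2-K1 (-0.55) and H2-D1 (-0.49), the immunoproteasome subunit Psmb9 (-0.80), and the peptide transporter Tap1 (-0.38). B2m was at 1704 CPM in CS and 1143 in TS in HSPC-like cells, and at 982.1 and 632.5 CPM in early erythroid-like cells. Within classes 9 list genes passed in each, 7 to 9 of them were below 0, none was past 2-fold, and the medians ran from -0.27 in megakaryocyte-like cells to -0.49 in 3 classes. Psmb10 and Tap2 were the members nearest 0 in whole libraries. Of the interferon-stimulated list 6 genes passed in whole libraries and all were below 0 (median -0.47). Within the classes the median was -0.08 in HSPC-like cells (2 of 9 genes above 0) and -0.06 in megakaryocyte-like cells (2 of 5), and between -0.34 and -0.63 in the other 5 (0 or 1 of 4 or 5 above 0). Ifitm1, which is outside the list, was above 0 in 3 of the 5 classes where it passed, up to 2.30. Members above 0 included Ly6e, at 0.08 in early erythroid-like cells, and Ly6a, the gene of the Sca-1 antigen on which cells were sorted, at 50 CPM in CS and 94.97 in TS in HSPC-like cells (0.93).

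Irf1 and the class I heavy chain genes are textbook targets of interferon and of NF-kB, respectively, and their promoter letters can be read directly. In windows of 250 bases before to 50 after each start in RefSeq (GRCm38.p6), TTCNNNGAA was found on either strand for 2582 of 27025 genes (9.55%), and the kappa B site of class I promoters, whose letters are the capitals of the H2-K1 stretch, for 34 (0.126%). Of the 8 class I genes matched, 2 held the kappa B site, H2-K1 and H2-D1, and 1 held TTCNNNGAA, Psmb8. Of 11 interferon-stimulated genes 3 held TTCNNNGAA and none the kappa B site, and of 15 NF-kB genes 3 and none. Stretches of the Irf1 promoter (chr11:53769894-53769962, plus strand), the H2-Q7 promoter (chr17:35438992-35439061, plus strand), and the H2-K1 promoter (chr17:34000419-34000488, minus strand) are shown because these genes were below 0 in all clusters in which they passed. Each is written 5' to 3' on the strand of its gene with the motif in capitals, TTCNNNGAA in the first and the kappa B site in the others.
Irf1: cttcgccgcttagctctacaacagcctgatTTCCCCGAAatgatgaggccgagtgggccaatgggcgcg
H2-Q7: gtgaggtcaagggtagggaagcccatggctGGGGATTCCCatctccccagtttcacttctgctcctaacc
H2-K1: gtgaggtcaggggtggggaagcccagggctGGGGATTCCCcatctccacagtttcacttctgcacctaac
The H2-Q7 and H2-K1 stretches share much of their flanks as well as the site, while the genes differed in ratio, at -1.71 for H2-Q7 and -0.71 for H2-K1 in whole libraries. A match describes the letters only and gives no evidence of binding.

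**Figure D5:**
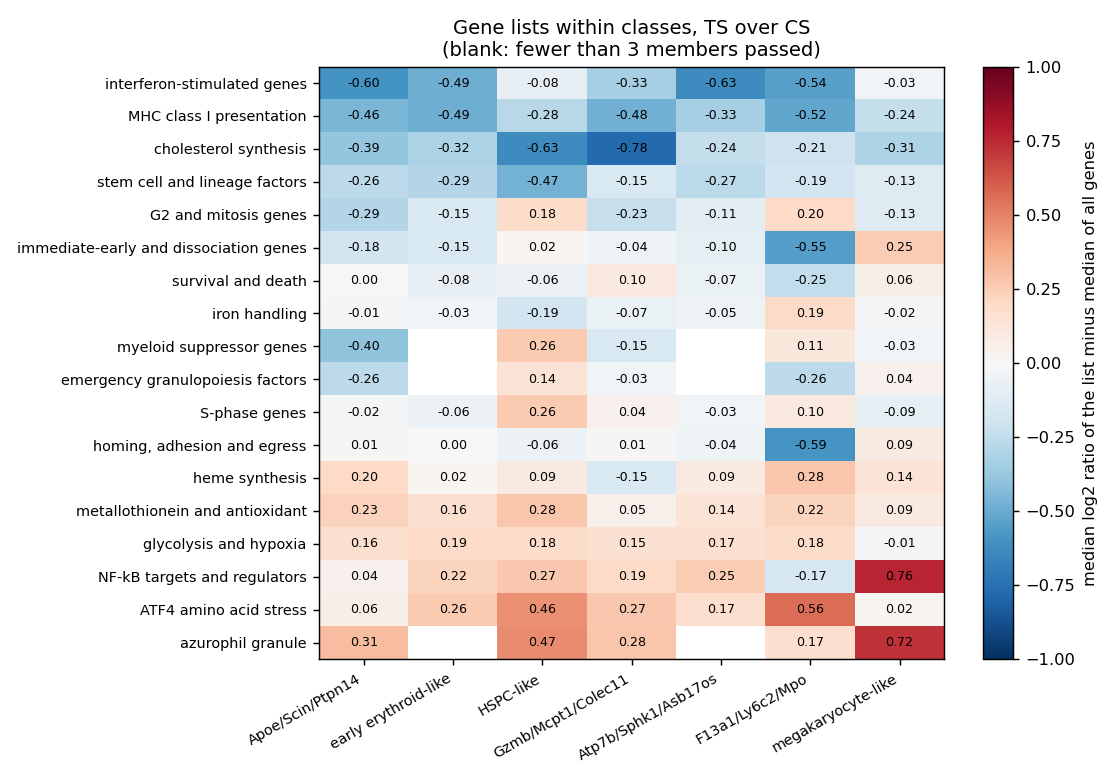
Median log2 ratio of TS over CS of each gene list minus the median of all genes tested in that class, for the 7 classes (columns) and the lists with at least 3 members passing in at least 5 classes (rows). MHC class I presentation, cholesterol synthesis, interferon-stimulated genes (-0.03 to -0.63), and stem cell and lineage factors (-0.13 to -0.47) are below 0 in all 7 classes, and NF-kB genes reach 0.76 in megakaryocyte-like cells.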

How the data were processed

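The deposited files hold the authors' unfiltered UMI counts per gene and barcode, whole numbers without normalization, from 10x 3' v3.1 libraries. The submitters' processing notes name Cell Ranger 4.0 and mm10. The study's later steps (removal of 10% ambient RNA, a minimum of 350 genes, SCT) are not in the files. Kept cells had at least 1000 genes and at most 10% mitochondrial UMIs. Genes, classes, and lists were chosen with earlier results of these data known.

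Normalized marker genes (159, for 20 classes) of CS and TS were reduced to 15 principal components and clustered by Leiden (20 neighbors, resolution 1.5) with scanpy 1.11.5. A class was named where at least 3 and at least 60% of its markers were at 20 CPM or more and 2-fold over the median cluster, and no other class had more markers among the 10 leading genes. Unnamed clusters sharing at least 5 of their 20 leading genes were joined. These settings were set after the clusters were seen. Doublets stayed in. Scrublet marked 0.742% of CS and 1.72% of TS cells, and an alternative left out the 5% with the highest scores.

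UMIs were summed per library or class and divided by the total, in CPM. Whole-library genes needed a mean of 10 CPM, and class genes, outside the panel, 20 CPM and 20 UMIs. Intervals are exact Poisson (levels), Clopper-Pearson (shares), and conditional binomial (ratios) at 95%, for counting error only. A side with 0 UMIs was set to 3 counts for its ratio. Called means past 2-fold; no test was run with 1 library per group. The ratio step was tested on simulated data. Named genes were the 15 highest and 15 lowest (5 and 5 in a class) with a mean of at least 100 CPM, without mitochondrial, ribosomal, globin, and immunoglobulin genes, 2 members at each end of a list, and 5 genes the study names. Some results are not reported here. Python 3.11.15, numpy 2.4.6, scipy 1.17.1, and pandas 2.3.3 were used.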

Additional observations from a re-analysis of the deposited data

Results flagged for a closer look

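Among the genes named by rule in whole libraries and those past 2-fold in at least 3 classes, the following had spleen and marrow ratios of opposite sign with both counting intervals off 0. The difference between the tissues was not tested, and genes named only within a class or a list were not compared in this way. C1qtnf12 had a log2 ratio of 0.77 for TS over CS and -0.08 for TBM over CBM. Wdr89 was at 0.64 in spleen and -0.32 in marrow. Gsta4 was at 2.81 in spleen and -0.32 in marrow, where it was low in both libraries (3.11 and 2.49 CPM), and Rec8 at 1.48 and -0.68. In the other direction, Gm10076 was at -0.94 in spleen and 0.36 in marrow, Fosb, an immediate-early transcription factor, at -0.98 and 0.30, and the unnamed transcript Gm26802 at -1.21 and 0.82.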

How the results depend on the processing

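With 1 library per group no result could be checked against replicates, and no paired analysis was possible because the groups share no replicates. Over all alternatives, 59 of the values that answer a comparison moved by less than 1.5 times or their interval and 22 moved by more, and of the values of single genes and small classes 410 stayed, 159 moved, and 4 changed sign. Of whole-library genes, 19 were higher and 189 lower. These counts were 46 and 449 with each cell thinned to 2000 UMIs, 1393 and 3957 with no filter on low values, and 2 and 25 at a mean of at least 100 CPM. A trimmed mean scaling (shift of -0.12) gave 30 higher and 163 lower, moving the share of higher genes among those called from 9.13% to 15.5%, and TS with the class shares of CS gave 20 and 30 (40% higher), where Cst3 turned to 0.05. The ratio of shares of early erythroid-like cells was 3.42 with cells of at least 350 genes, 1.78 with clusters on all variable genes, and 1.68 by marker score; that of HSPC-like cells 3.997 with at least 350 genes and 1.202 by score; that of megakaryocyte-like cells 1.37 and 0.673; and that of basophil-like cells 0.332 and 0.209. Hemoglobin-rich erythroid-like cells turned to 1.04 with at least 350 genes, and T, NK, and innate lymphoid cell-like cells to 1.29 there and 1.02 by score. Within classes, clusters on all variable genes gave 20 genes past 2-fold in early erythroid-like cells (14 lower, against 8) and 26 higher in megakaryocyte-like cells (against 40). Subtracting free RNA gave 10 higher in early erythroid-like cells (against 5), and a trimmed mean scaling 22 higher in HSPC-like cells (against 13). Counting genes with their whole interval past 2-fold left 13 in megakaryocyte-like, 36 in HSPC-like, 94 in F13a1/Ly6c2/Mpo, and 17 in Gzmb/Mcpt1/Colec11 cells. The cause of these shifts was not tested, apart from the number of genes tested under a filter. Apart from the Ighg2b/Igkc/Iglc2 class, the unnamed classes took other leading genes when other genes or cells were clustered and were not compared there.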

Other observations

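The other gene lists given here had medians from -0.55 to 0.38 in whole libraries, and some held members past 2-fold. ATF4 target genes of amino acid stress were all above 0 (9 of 9, median log2 ratio 0.38), led by Asns, from 51.1 to 101.4 CPM, and Shmt2, a mitochondrial enzyme of one-carbon metabolism. Metallothionein and antioxidant genes were above 0 in 10 of 11 (0.21), and glycolysis and hypoxia genes had a median of 0.27, with Pgam1 highest and Hk2, a hexokinase, lowest. Heme synthesis had a median of 0.21 over 8 genes, with Alas1 and Fech highest. Cholesterol genes were below 0 in 9 of 9 (-0.55). S-phase genes (0.12, 16 of 20 above 0) and G2 genes (-0.02) held no member past 2-fold. With the class shares of CS the medians were 0.26 for ATF4, 0.17 for antioxidant, 0.13 for glycolysis, and -0.49 for cholesterol genes. Those of heme synthesis, S-phase, and G2 genes were -0.02, -0.01, and -0.13. Among survival genes Bcl2a1d, Bcl2a1b, and Pmaip1 were past 2-fold lower (against 2.43% of all genes tested), and the first pair are near-identical copies. The median was -0.29, and 0.11 with the class shares of CS. Of homing and egress genes Itgb2, Ccr2, and Itgal were past 2-fold lower, against 2.43% of all genes (median -0.25, and -0.03 with the class shares of CS). Itgal fell from 31.6 to 13.4 CPM, and Ccr2, at 19.8 against 8.00 CPM, and Itgb2 passed through CS alone, as did Bcl2a1d, Bcl2a1b, and Pmaip1. Stem cell and lineage factors were below 0 in 12 of 13 (median -0.41, and -0.25 with the class shares of CS), with Irf8 and Gata2 past 2-fold lower (against 2.43%) and Hlf, a factor of stem cells, highest at 0.15.

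Among called genes outside the naming rule, Iglc1, an immunoglobulin light chain gene, was at 95.3 CPM in CS against 2.09 in TS (-5.51), although cells of the Ighg2b/Igkc/Iglc2 class numbered 14 in CS and 38 in TS. Apol7c, a gene of cross-presenting dendritic cells, was at 66.2 against 0.744 CPM (-6.47). Both passed the filter through CS alone, which fixed their direction.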
